A study of Pistacia chinensis with 8 samples.

Results

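Male and female inflorescence buds of dioecious Chinese pistache (Pistacia chinensis) were compared by small RNA sequencing at stage B and at stage C of floral development. The comparison used 4 of the 8 libraries of the series, taken by their labelled sex type: male buds of strain X1 at stage B, male buds of strain X1 at stage C, female buds of strain C1 at stage B and female buds of strain C1 at stage C. All were inflorescence buds, and no treatment or genetic change was given. The other 4 libraries came from a monoecious plant type, strain T2, whose buds were labelled monoecious female or monoecious bisexual at the same stages, and they are used below for the spread of the test and as a side-by-side reading. The labels give 1 strain name for each sex, so sex and strain cannot be told apart in any male to female difference below. Each sex and stage was 1 library, and the labels do not say whether a library held 1 tree or several, so no value below has a replicate check.

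Plant miRNAs are short RNAs cut from hairpin precursors and loaded into ARGONAUTE proteins, which they guide to complementary messenger RNAs that are then cut or left untranslated. Many of the oldest plant miRNA families target transcription factors that set meristem identity, floral organ identity and the response to auxin, and others act in copper, sulphate and phosphate supply. In dioecious plants, the flowers of a plant form working stamens or working carpels, and in some species the organs of the other sex begin and then stop in the bud. No mature or hairpin sequence was used here, so miRNAs are given by the names in the deposited table.

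Of 471 miRNA rows in the table, 385 bore names in the style of miRBase, from 67 families, and 86 were the authors' own predictions, known by a number. Counts summed over these rows were 1159015 in female and 859476 in male buds at stage B, and 473553 and 419169 at stage C. Rows with nearly the same counts each enter these sums. With such rows counted once, the sums were 884456 in female and 645555 in male buds at stage B, and 369017 and 310096 at stage C. Levels are CPM, which are read counts brought to a common library total, scaled with TMM, a factor that corrects for the composition of each library, and 3 reads corresponded to 3.77 CPM in female and 4.50 CPM in male buds at stage B and to 5.08 and 5.55 CPM at stage C. Rows of a family with nearly the same counts in every library were read as 1 group under the name of the row with most reads, which left 339 groups, each of them 1 row where no other matched it. A group was measured if male and female buds together had at least 20 reads at each stage, which 147 groups met. Intervals given with a male to female ratio are exact 95% binomial intervals, and they cover counting error only. TMM factors were 0.686 in female and 0.775 in male buds at stage B, and 1.25 and 1.29 at stage C. Levels compared between stages thus rest on this scaling, and each stage C to stage B ratio would be higher on total counts. Since whole buds were sequenced, fewer cells of a type and less RNA per cell cannot be told apart.

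The miRNAs that differed between male and female buds were partly shared between the 2 stages. Of the 147 measured groups, 99 lay within 1.5-fold of each other in male and female buds at stage B and 74 at stage C. A difference of at least 2-fold with an interval that excluded 1 was found for 17 groups higher in male buds at stage B (11.6% of those measured) and for 4 that were lower (2.72%). At stage C, 20 groups were higher in male buds (13.6%) and 11 were lower (7.48%). Past that limit at both stages were 14 groups, and 11 of them went the same way, which is 52.4% of the 21 groups at stage B and 35.5% of the 31 at stage C. The log2 ratios of the 2 stages had a Spearman rho of 0.34 and a Pearson r of 0.47 across the 147 groups, which share their libraries and are not independent. Predicted miRNAs had a rho of 0.65 (37 groups) and named miRNAs a rho of 0.17 (110 groups).

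Predicted miRNAs made up most of the groups that went the same way. Of the 37 predicted groups, 5 were higher (13.5%) and 4 were lower (10.8%) in male buds at both stages, while of the 110 named groups 2 were higher (1.82%) and 0 were lower. Taken stage by stage, 10 predicted groups were past 2-fold higher (27%) and 4 lower (10.8%) in male buds at stage B, and 7 were higher (18.9%) and 5 lower (13.5%) at stage C. For the named groups the counts were 7 higher (6.36%) and 0 lower at stage B, and 13 higher (11.8%) and 6 lower (5.45%) at stage C. The median number of reads in the 4 libraries was 637 for predicted and 506.5 for named groups, and 367 for the groups that went the same way.

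**Figure D1:**
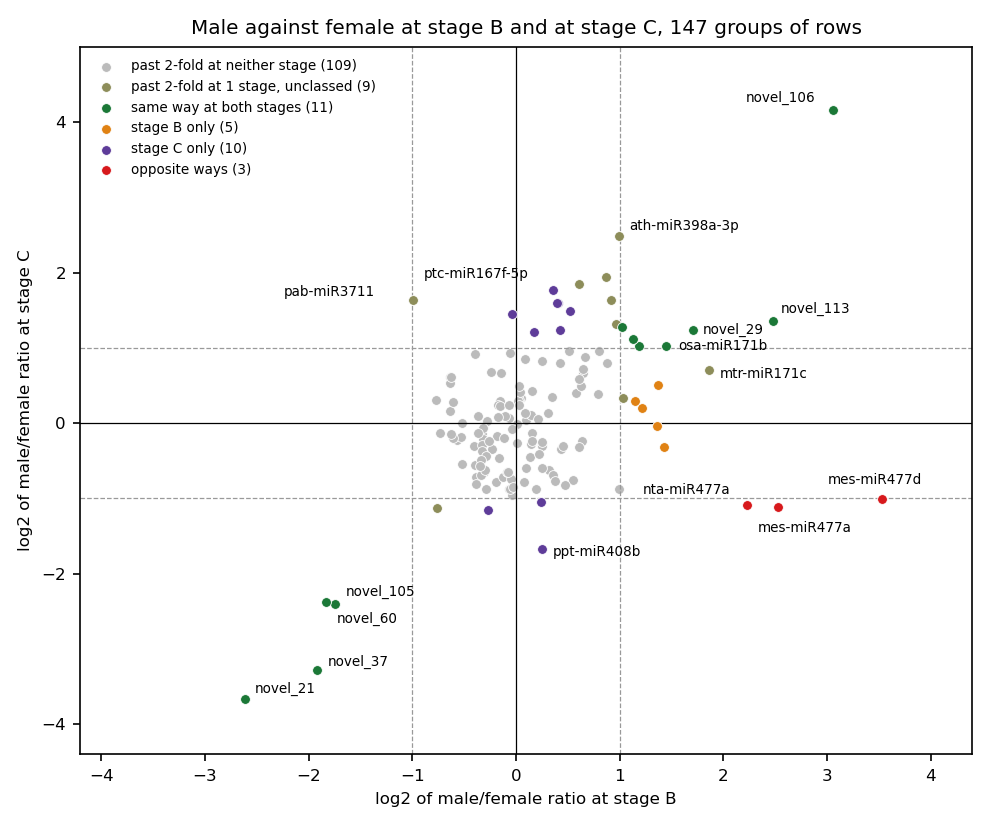
Each point is 1 of the 147 measured groups, with the log2 ratio of male to female buds at stage B along the horizontal axis and that at stage C along the vertical one, and dashed lines mark 2-fold. The 11 groups past 2-fold the same way at both stages lie in the upper right and lower left corners, and the 3 miR477 groups lie at the lower right.

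Of the named miRNAs, the groups osa-miR171b of miR171 and csi-miR160 of miR160 were past 2-fold higher in male buds at both stages. The miR171 family directs cleavage of mRNAs for GRAS transcription factors of the HAIRY MERISTEM type, which keep shoot meristems undifferentiated. The group osa-miR171b, which includes htu-miR171a, had 378 CPM in female and 1031 CPM in male buds at stage B, and 1232 CPM in female and 2501 CPM in male buds at stage C. It was thus higher in male buds at each stage and higher at stage C than at stage B in each sex. Male buds held 2.72 times the female level at stage B (interval 2.38 to 3.13) and 2.03 times at stage C (1.85 to 2.23).

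The miR160 family represses the auxin response factors ARF10, ARF16 and ARF17. The group csi-miR160, which includes aau-miR160 and gma-miR160b, had 91.8 CPM in female and 186 CPM in male buds at stage B, and 89.7 CPM in female and 217 CPM in male buds at stage C. Levels in each sex were close at the 2 stages with TMM scaling and would not be so on every scaling. The male level was above the female level at both. The ratio was 2.03 at stage B (interval 1.51 to 2.75) and 2.42 at stage C (1.73 to 3.41). Both osa-miR171b and csi-miR160 lay near the 2-fold limit. The groups just outside it, named for that reason after their values were seen, were ath-miR398a-3p with ratios of 1.99 and 5.60 for stages B and C, ath-miR160a-5p with 1.95 and 2.50, novel_10 with 1.89 and 3.11, and osa-miR160e-5p with 1.83 and 3.83. With RLE factors in place of TMM, osa-miR171b and csi-miR160 fell below the limit, and with total counts alone these 4 other groups passed it. Whether the miR160 groups csi-miR160, ath-miR160a-5p and osa-miR160e-5p share reads was not tested, so they may not be separate observations.

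The predicted miRNA novel_106 was read in male buds alone. It had 0 reads in female buds at either stage, 21 reads (31.5 CPM) in male buds at stage B and 49 reads (90.7 CPM) in male buds at stage C, and 0 reads in all 4 libraries of strain T2. Against a floor of 3 reads in the female library, male buds held at least 8.36-fold more at stage B and at least 17.9-fold more at stage C, and the exact intervals from the 0 female reads had lower ends of 6.22 and 14. It was the 1 group of the 339 with 0 reads in both libraries of a sex and at least 20 reads in the other. No sequence or target of novel_106 or of the other predicted miRNAs was used here.

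Besides novel_106, 4 predicted miRNAs were higher in male buds at both stages. In novel_113 the female level was 11.3 CPM and the male level 63.0 CPM at stage B, and 25.4 and 64.8 CPM at stage C, with ratios of 5.57 (interval 2.67 to 13.0) and 2.55 (1.36 to 5.03). In novel_29 the female level was 161 CPM and the male level 525 CPM at stage B, and 261 and 615 CPM at stage C, with ratios of 3.26 (2.66 to 4.03) and 2.36 (1.94 to 2.87). With TMM scaling, the male level of novel_29 changed less from stage B to stage C than the female level did. The male change was 0.723 times the female change (Wald interval 0.548 to 0.955). For novel_113 the male change was 0.469 times the female change. Its Wald interval of 0.187 to 1.18 does not exclude an equal change in both sexes. For novel_22 the levels were 319 CPM in female and 698 CPM in male buds at stage B, and 487 and 1057 CPM at stage C. For novel_102 they were 65.4 and 149 CPM at stage B, and 173 and 352 CPM at stage C. Ratios of these 2 miRNAs lay between 2.04 and 2.27, so female and male levels moved nearly in step from stage to stage.

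Lower in male buds at both stages were 4 predicted miRNAs (2.72% of the measured groups), and no named miRNA passed the limit in that direction. The most abundant was novel_21, with 417 reads (524 CPM) in female and 57 reads (85.6 CPM) in male buds at stage B, and 846 reads (1432 CPM) in female and 61 reads (113 CPM) in male buds at stage C. Male levels were thus low at both stages, while the female level was higher at stage C than at stage B. The ratio was 0.163 at stage B (interval 0.121 to 0.216) and 0.0789 at stage C (0.0598 to 0.102).

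For novel_37, female buds had 18 reads and male buds 4 at stage B, and 159 and 15 at stage C, and the ratios were 0.265 (interval 0.0653 to 0.805) and 0.103 (0.0564 to 0.175). For novel_60, female buds had 34 reads and male buds 8 at stage B, and 57 and 10 at stage C, and the ratios were 0.281 (0.112 to 0.618) and 0.192 (0.0874 to 0.379). For novel_105, female buds had 16 reads and male buds 4 at stage B, and 29 and 5 at stage C, and the ratios were 0.298 (0.0726 to 0.925) and 0.189 (0.0570 to 0.493). All 3 had 10 male reads or fewer at stage B, so their stage B ratios are known only within wide limits. With total counts alone, novel_105 no longer met the limits, and the split of groups that went the same way was 11 higher and 3 lower in place of 7 and 4.

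**Figure D2:**
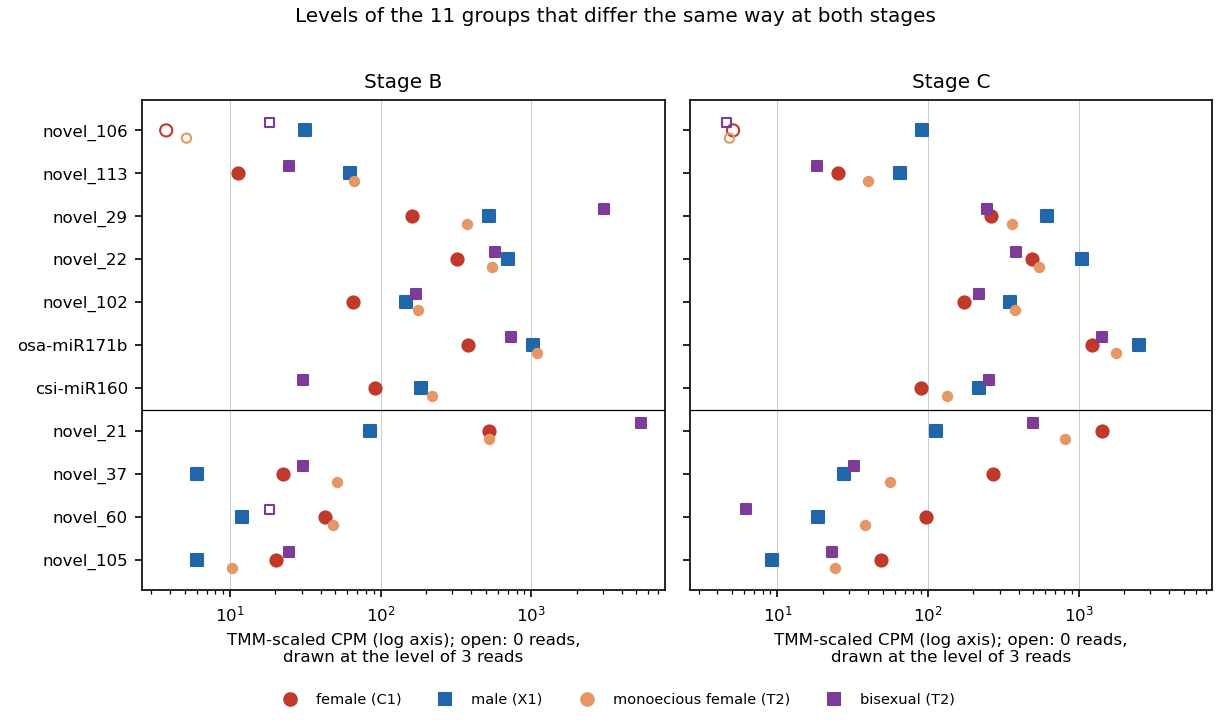
Points give the TMM-scaled CPM of each library on a log axis for the 11 groups that differed the same way, with stage B on the left and stage C on the right, and open symbols stand for 0 reads. Male and female points lie at least 2-fold apart in each line, and the novel_21 points lie at 85.6 CPM (male) and 524 CPM (female) for stage B.

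No row reached an adjusted p under 0.05 for male against female in a model of stage and sex type over the 8 libraries. The test was edgeR's quasi-likelihood F-test with Benjamini-Hochberg adjustment, and it called 0 of 248 rows (0%). DESeq2 also called 0. By the edgeR test, 12 of the 248 rows had an unadjusted p under 0.05, close to the share of 0.05 expected where no row differs. Those 12 count the near-identical htu-miR171a and osa-miR171b separately and include novel_106. In this model the spread is the amount by which sex types differ unequally at the 2 stages. The smallest p-values belonged to novel_106, novel_36, novel_41, novel_21 and novel_37, each with an adjusted p of 0.908. Fitted log2 changes were -3.30 (SE 1.14) for novel_21 and -2.85 (SE 1.0) for novel_37. The row novel_106 passed the filter on low counts through the male libraries alone, so it had to differ, and its fitted change is not given because it is no measured fold against 0 female reads. Likewise novel_36 had 3 and 5 female reads against 0 male reads at the 2 stages, too few for a fold. The adjusted p of osa-miR171b, with a log2 change of 1.21 (SE 0.48), was 0.933 by the same test.

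The bisexual library at stage B had a count sum of 160129 over all rows, the lowest of the 8. The common dispersion of the model was 0.268 with all libraries and 0.0862 without both bisexual libraries. With the 4 male and female libraries alone, which leaves 1 residual degree of freedom and a dispersion of 0.0780, edgeR's quasi-likelihood test called 7 of 226 rows (3.10%). Higher in male buds were novel_29 (adjusted p = 0.0426), ath-miR398a-3p (0.0102) and ahy-miR398 (0.0102), and lower were novel_21 (1.25e-08), novel_37 (5.15e-05) and novel_60 (0.0102). The seventh was novel_106, whose call is no support since the male libraries alone carried it past the filter. The 2 miR398 rows hold nearly the same reads. Neither osa-miR171b (adjusted p = 0.129) nor csi-miR160 (0.168) was called there by edgeR.

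At stage B alone, 5 groups were at least 2-fold higher in male buds (3.40% of those measured) while they lay within 1.5-fold at stage C, with an interval of the ratio of both ratios that excluded 1. No group was lower at stage B alone. The named one was ath-miR390a-5p, which triggers the trans-acting small RNAs of TAS3 that repress auxin response factors. It had 269 CPM in female and 596 CPM in male buds at stage B, and 915 CPM in female and 1122 CPM in male buds at stage C. The male excess of 2.21-fold at stage B (interval 1.87 to 2.63) was 1.23-fold at stage C (1.09 to 1.38), and the second ratio was 0.554 of the first (0.452 to 0.678). From stage B to stage C the level was 3.40 times as high in female buds and 1.88 times as high in male buds.

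The other 4 groups at stage B were predicted miRNAs. Ratios at stage B and at stage C were 2.58 and 1.42 for novel_24, 2.58 and 0.970 for novel_47, 2.33 and 1.15 for novel_25, and 2.69 and 0.804 for novel_39. In novel_25 and novel_39 the levels at stage B were low in both sexes, with 21 female and 41 male reads for novel_25 and 8 female and 18 male reads for novel_39. At stage C each had over 100 reads in either sex.

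At stage C alone, 7 groups were higher in male buds (4.76% of those measured) and 3 were lower (2.04%). Most of those higher belonged to miR167, which targets the auxin response factors ARF6 and ARF8, needed in Arabidopsis for the maturation of anthers and ovules. The group ath-miR167a-5p had 1173 CPM in female and 1581 CPM in male buds at stage B, and 736 CPM in female and 1742 CPM in male buds at stage C. On the TMM scale, the level was lower at stage C than at stage B in female buds and not in male buds. This stage comparison depends on the scaling, since each stage C to stage B ratio would be higher on total counts. Ratios were 1.35 at stage B (interval 1.23 to 1.47) and 2.37 at stage C (2.11 to 2.66).

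The miR167 group with the widest stage C difference in this class was ptc-miR167f-5p, with 534 CPM in female and 685 CPM in male buds at stage B, and 316 and 1078 CPM at stage C. Its ratio was 1.28 at stage B (interval 1.12 to 1.47) and 3.41 at stage C (2.88 to 4.04). Stage C ratios were 2.82 for ath-miR167d, 3.04 for gma-miR167h and 3.04 for vvi-miR167c, against stage B ratios of 1.44, 1.33 and 1.32. These rows belong to 1 family, and whether they share reads was not tested, so they may not be separate observations. Of the 7 measured miR167 groups, 6 were past 2-fold higher in male buds at stage C and 0 at stage B, with ratios from 1.74 to 3.59 at stage C and from 1.28 to 1.53 at stage B. Over all 147 groups, 13.6% were past 2-fold higher at stage C and 11.6% at stage B. With total counts alone, ath-miR167a-5p and ath-miR167d lay outside 1.5-fold at stage B and left the class.

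Outside miR167, osa-miR166d-5p was higher in male buds at stage C, with 346 CPM in female and 390.3 CPM in male buds at stage B, and 704 and 1629 CPM at stage C. Its ratio was 1.13 at stage B and 2.31 at stage C (interval 2.06 to 2.61). By its name this row is the 5p arm of a miR166 precursor, while miR166 itself, the repressor of HD-ZIP III leaf and stem polarity genes, comes from the 3p arm. Arm names are uncertain in this table, since names of both arms can hold nearly the same counts, as in miR408. The predicted novel_19, named after its values were seen, had ratios of 0.972 for stage B and 2.73 for stage C. Both rows had their highest level of the series in bisexual buds at stage B, with 59502 CPM for osa-miR166d-5p and 11368 CPM for novel_19.

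Lower in male buds at stage C alone was miR408, which targets mRNAs of copper proteins such as plantacyanin and laccases. The group ppt-miR408b, which joins 4 rows named as both arms of the precursor, had 13.8 CPM in female and 16.5 CPM in male buds at stage B, and 189 reads (319.8 CPM) in female and 54 reads in male buds at stage C. Levels were low in both sexes at stage B, with 11 reads each, and higher at stage C, more so in female buds. The ratio was 1.19 at stage B (interval 0.469 to 3.04) and 0.313 at stage C (0.227 to 0.425).

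The row ptc-miR6478 had 172 CPM in female and 143 CPM in male buds at stage B, and 1366 and 615 CPM at stage C, with ratios of 0.828 (interval 0.630 to 1.08) and 0.450 (0.395 to 0.512). The row osa-miR160f-5p had 195 female and 193 male reads at stage B, and 61 female and 27 male reads at stage C, with ratios of 1.18 and 0.484 (0.296 to 0.774). It thus went the other way at stage C from csi-miR160. The 4 measured miR160 groups had ratios from 0.484 to 3.83 at stage C and from 1.18 to 2.03 at stage B.

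The miR477 family was higher in male buds at stage B and higher in female buds at stage C. In trees, miR477 is predicted to target GRAS transcription factors. For nta-miR477a, female buds had 30 reads (37.7 CPM) and male buds 118 reads (177 CPM) at stage B, and female buds had 216 reads (365 CPM) and male buds 93 reads (172 CPM) at stage C. With TMM scaling, the male level was nearly the same at both stages, with a stage C to stage B ratio of 0.972. The female level was 9.69 times as high at stage C. Both stage ratios would be higher on total counts. The male to female ratio was 4.70 at stage B (interval 3.12 to 7.26) and 0.471 at stage C (0.365 to 0.603).

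The row mes-miR477a had 16.3 CPM in female and 94.6 CPM in male buds at stage B, and 360.4 and 167 CPM at stage C, with ratios of 5.79 (interval 3.15 to 11.5) and 0.462 (0.357 to 0.594). The row mes-miR477d had 3 female and 29 male reads at stage B, and 68 female and 31 male reads at stage C, with ratios of 11.5 (3.58 to 59.2) and 0.499 (0.315 to 0.773). These were the 3 groups past 2-fold in opposite directions (2.04% of those measured), and they were the 3 measured groups of the family. Whether they share reads was not tested, so they may not be separate observations. The stage C ratio of mes-miR477d lies at the edge of the limit, and with total counts alone it lay outside the limit. Summed over the family, male buds held 5.10 times the female level at stage B (3.79 to 6.97) and 0.501 times at stage C (0.432 to 0.579). Shared reads would enter this sum more than once, so its intervals may be too narrow.

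**Figure D3:**
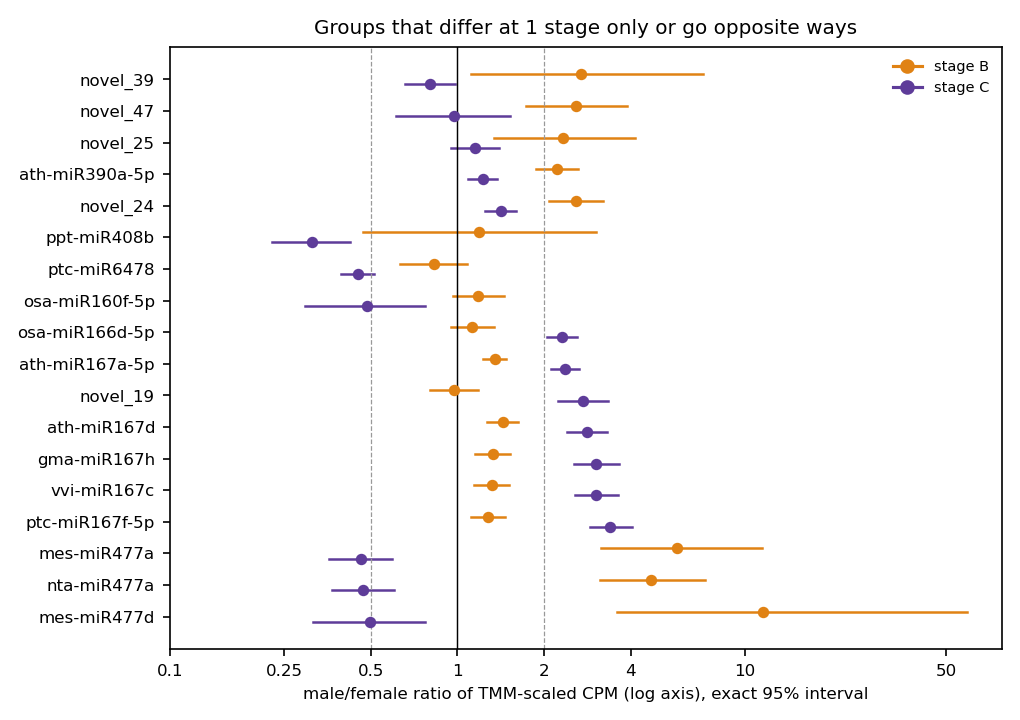
Points give the ratio of male to female TMM-scaled CPM on a log axis at stage B and at stage C, with exact 95% intervals for counting error, for the groups that differed at 1 stage and those that went opposite ways. The miR167 groups lie between 1.28 and 1.44 at stage B and between 2.37 and 3.41 at stage C, and the miR477 groups lie above 4 at stage B and at or below 0.5 at stage C.

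A further 9 groups (6.12%) passed the limits at 1 stage and met neither definition at the other, most of them with a ratio between 1.5-fold and 2-fold there. Those named here were chosen after their values were seen. The miR398 family represses copper/zinc superoxide dismutases. Its group ath-miR398a-3p had 12 reads in female and 20 in male buds at stage B, and 44 in female and 225 in male buds at stage C, so that the male stage C library stood above the other 3 with 417 CPM. Its ratio was 1.99 at stage B (interval 0.926 to 4.46) and 5.6 at stage C (4.04 to 7.92). The other measured miR398 group, osa-miR398b, went the other way at stage C, with 637 female and 318 male reads and a ratio of 0.546 (0.476 to 0.626). For mtr-miR171c, ratios were 3.65 at stage B and 1.63 at stage C, for gma-miR167i 1.53 and 3.59, and for pab-miR3711 0.504 and 3.11.

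At the level of families, with the reads of near-identical rows counted once, 28 of the 67 families were measured. Whether rows that were not joined share reads was not tested. Family sums may thus count some reads more than once, and their intervals may be too narrow. None of the 28 families was past 2-fold in the same direction at both stages. Higher in male buds at stage B were 3 families (10.7%), miR477, miR390 and miR171, and lower was 1 (3.57%), miR395. At stage C, miR167 and miR3711 were higher (7.14%) and miR408 and miR6478 were lower (7.14%). The families miR171, miR394, miR3711 and miR6478 are named after their values were seen. Family sums with edgeR's quasi-likelihood test, fitted with the predicted miRNAs, gave 0 calls of 96 (0%) at an adjusted p under 0.05. Of these 96, 8 had an unadjusted p under 0.05 by that test, novel_106 among them. All 8 were predicted miRNAs, and none was a family. DESeq2 called 1, novel_21.

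Summed over its rows, miR171 had 832 CPM in female and 1714 CPM in male buds at stage B, and 2465 and 4182 CPM at stage C. Ratios were 2.06 (interval 1.87 to 2.27) and 1.70 (1.59 to 1.81), so the male excess was present at both stages and below 2-fold at stage C. Within miR171, 2 of 7 measured groups were past 2-fold higher at stage B and 1 at stage C, with ratios from 0.926 to 3.65 and from 0.869 to 2.03. Over all 147 groups, 11.6% were past 2-fold higher at stage B and 13.6% at stage C, so the miR171 count at stage C is near that share.

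Of the auxin families, miR167, miR390 and miR160 were measured, with a median log2 ratio of 0.65 for stage B and 0.98 for stage C, against -0.03 and -0.09 over the 28 families. Each of the 3 was higher in male buds at both stages, past 2-fold for miR390 at stage B and for miR167 at stage C. The miR160 family had 495 CPM in female and 779 CPM in male buds at stage B, and 311 and 615 CPM at stage C, with ratios of 1.57 (interval 1.38 to 1.8) and 1.97 (1.64 to 2.38). For miR167 the family ratio was 1.36 (1.29 to 1.43) for stage B and 2.75 (2.59 to 2.93) for stage C, and for miR390 it was 2.23 (1.90 to 2.64) and 1.25 (1.12 to 1.40). The miR393 family, which represses the auxin receptors TIR1 and AFB, had 7 female and 6 male reads at stage B. That was too few to be measured, so the medians above leave it out. At stage C it went the other way, with 140 female and 22 male reads and a ratio of 0.172 (0.104 to 0.271).

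Of the nutrient and copper families, 4 of 7 were measured, with 1 lower at stage B, 1 lower at stage C and median log2 ratios of 0.04 and -0.00. The miR395 family, which represses ATP sulfurylases and a sulphate transporter, had 129 female and 42 male reads at stage B, and 97 and 101 at stage C. Its level at stage B was 162 CPM in female and 63.0 CPM in male buds, a ratio of 0.389 (interval 0.268 to 0.554), and the stage C ratio was 1.14 (0.854 to 1.52). The nearly equal rows ath-miR395a and tae-miR395b both enter this sum, with 55 and 56 female and 15 and 15 male reads at stage B. They were not joined, since bisexual buds at stage B had 17 and 5 reads. The family ratio with 1 of them left out was not computed. The miR408 family had a ratio of 1.19 for stage B and 0.323 for stage C (0.251 to 0.413). For miR399, which acts on a phosphate-balance ubiquitin conjugase, the ratio was 0.882 at stage B (0.794 to 0.979), with a log2 ratio of -0.01 on total counts alone, and 1.42 at stage C (1.21 to 1.66). For miR398 the family ratio was 1.29 (0.987 to 1.70) for stage B and 0.874 (0.781 to 0.978) for stage C, where the sum runs over groups that went opposite ways.

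Of the 9 families of floral organ and meristem regulators, 8 were measured, 1 was past 2-fold higher at stage B (miR171) and 0 at stage C, and the median log2 ratios were -0.08 and -0.18. The miR159 family, which represses GAMYB-like genes of anther development, had male to female ratios of 0.757 for stage B and 0.872 for stage C. For miR319, which represses TCP genes of leaf and petal growth, the ratio was 1.10 at stage B and 0.749 at stage C. For miR396, which represses growth-regulating factors, it was 1.22 at stage B (interval 1.19 to 1.26) and 0.676 at stage C (0.651 to 0.702).

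The miR166 family had ratios of 0.884 for stage B and 1.13 for stage C, and its stage B log2 ratio was -0.18 with TMM and -0.00 with total counts alone. The miR394 family, which represses the F-box gene LEAF CURLING RESPONSIVENESS, had 1527 CPM in female and 1491 CPM in male buds at stage B, and 3291 and 1690.4 CPM at stage C. Its stage C ratio of 0.514 (interval 0.474 to 0.556) lay just inside 2-fold, and the level differed more between the stages in female than in male buds.

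Of the phase change families, 2 of 4 were measured and neither was past 2-fold. The miR172 family, which represses APETALA2-like genes of perianth and reproductive organ identity, had a ratio of 0.978 for stage B and 0.633 for stage C (interval 0.509 to 0.785). The miR156 family, which represses SPL genes, had 38 female and 17 male reads at stage B and 35 and 31 at stage C, with ratios of 0.534 and 0.969. The related miR157 had 1 female and 2 male reads at stage B, and 0 and 1 at stage C, and miR535 had 18 and 2 at stage B, and 7 and 12 at stage C.

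In the silencing machinery, miR168, which represses ARGONAUTE1, had ratios of 1.09 for stage B and 1.16 for stage C, and miR403, which represses ARGONAUTE2, had 1.74 (interval 1.23 to 2.48) and 0.803 (0.694 to 0.929). The miR162 family, which represses DICER-LIKE1, had 1 read in male buds at stage C and 0 in the other 3 libraries. Of the families that target NBS-LRR resistance genes, miR482 had ratios of 0.643 and 1.13 and miR472 had 0.862 and 0.912, while miR2118 had 1 read in female buds at each stage and 0 in male buds. For miR858, which represses MYB genes of the phenylpropanoid pathway, the ratios were 1.11 and 0.825, and miR828, another MYB regulator, had 0 reads at stage B and 4 female and 3 male reads at stage C. Too few reads to be measured were also found for miR473, with 2 male reads at stage B and 10 female and 7 male reads at stage C, and for miR845, a family active in pollen of Arabidopsis, with 9 female and 6 male reads at stage B and 5 and 15 at stage C.

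**Figure D4:**
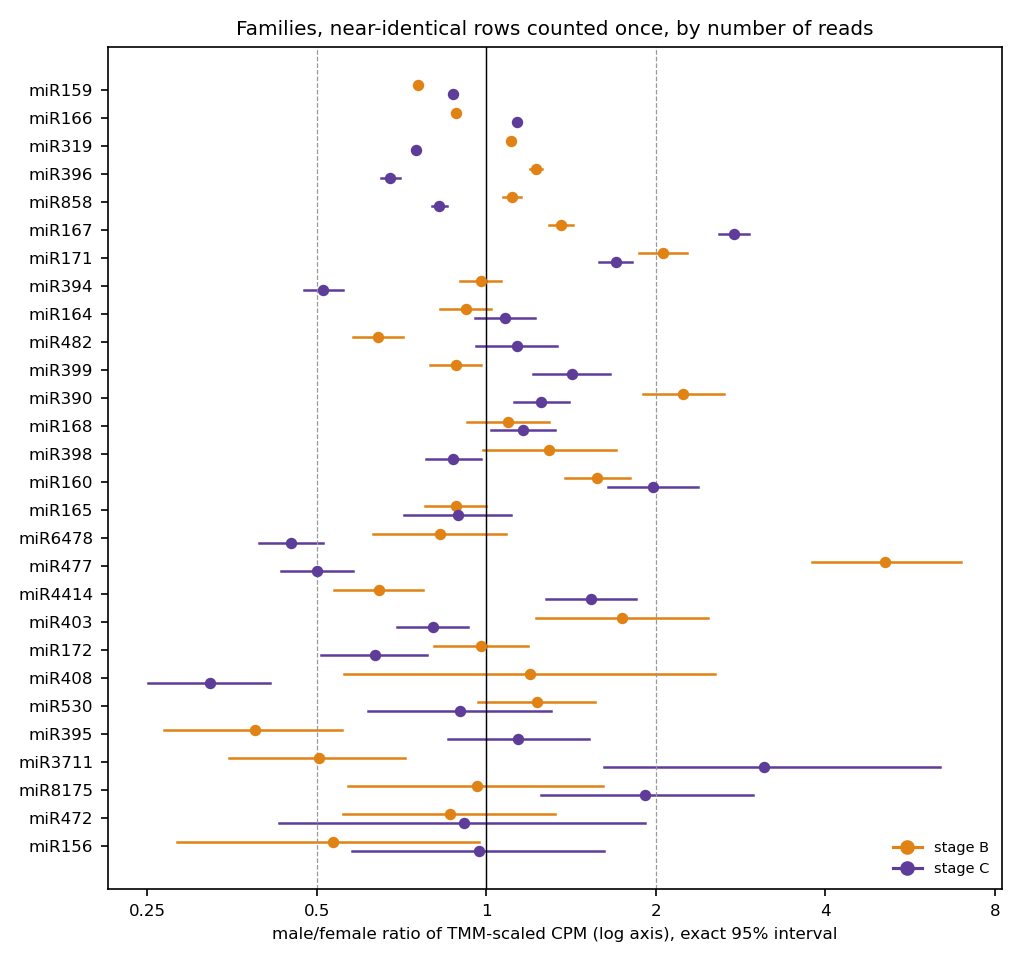
Points give the ratio of male to female TMM-scaled CPM on a log axis for the 28 measured families, ordered by reads, at stage B and at stage C, with exact 95% intervals for counting error. Ratios of miR477 lie at 5.10 and 0.501, those of miR171 at 2.06 and 1.70, and those of miR408 at 1.19 and 0.323.

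The most abundant miRNAs lay within 1.5-fold between the sexes. The miR159 family held 46.3% of reads in female and 40.2% in male buds at stage B, and 36.0% and 34.1% at stage C, when near-identical rows were counted once. The share of miR319 was 14.1% in female and 17.8% in male buds at stage B, and 26.3% and 21.4% at stage C. Of the 5 rows with most reads, ath-miR159a had male to female ratios of 0.795 for stage B and 0.907 for stage C. The other 4 belonged to miR166, namely cpa-miR166e, zma-miR166h-3p, ath-miR166a-3p and gma-miR166u, and had ratios from 0.890 to 0.903 for stage B and from 1.18 to 1.24 for stage C. Predicted miRNAs held a larger share in male buds, with 2.95% against 2.23% at stage B and 5.28% against 4.63% at stage C.

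Some miRNAs had at least 20 male and female reads at 1 stage and fewer at the other, so they were not sorted by stage, and those named here were chosen after their values were seen except novel_41. The group ata-miR393-5p had 6 reads in each sex at stage B, and 134 in female and 19 in male buds at stage C. That is 227 CPM in female and 35.2 CPM in male buds at stage C, a ratio of 0.155 (interval 0.0906 to 0.252). The predicted novel_41 had 1 read in each sex at stage B, and 4 in female and 107 in male buds at stage C, a ratio of 29.3 (11.1 to 109).

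In the other direction of time, ath-miR395a had 55 reads in female and 15 in male buds at stage B, and 3 in female and 14 in male buds at stage C. The stage B ratio was 0.326 (interval 0.171 to 0.584), and the nearly equal row tae-miR395b had 0.320. In all, 28 groups had at least 20 reads at stage C alone, of which 5 were past 2-fold higher and 3 lower in male buds. Among the 147 measured groups, 13.6% were higher and 7.48% lower at stage C. With at least 20 reads at stage B alone there were 14 groups, of which 0 were higher and 2 lower. Those 2 were ath-miR395a and tae-miR395b, which may hold the same reads. Of the 147 measured groups, 11.6% were higher and 2.72% lower at stage B. Under 20 reads at each stage were 150 groups.

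The same data read by sex show how far each miRNA moved from stage B to stage C. These ratios rest on TMM scaling, and each would be higher on total counts. For ppt-miR408b the stage C to stage B ratio was 23.1 in female buds (interval 12.6 to 47.1) and 6.05 in male buds (3.13 to 12.8). The 2 rows with few reads have wide intervals. For ata-miR393-5p the ratio was 30.1 in female buds (13.5 to 83.3) and 3.91 in male buds (1.5 to 11.9), and for ath-miR395a it was 0.0734 (0.0147 to 0.226) and 1.15 (0.515 to 2.56). Among the measured groups, which leave out these 2 rows, the male change was at least 2 times the female change in 12 of 147 (8.16%) and at most 0.5 times in 16 (10.9%). For ath-miR398a-3p the ratio was 4.93 in female and 13.9 in male buds, and for ptc-miR167f-5p it was 0.592 and 1.57.

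**Figure D5:**
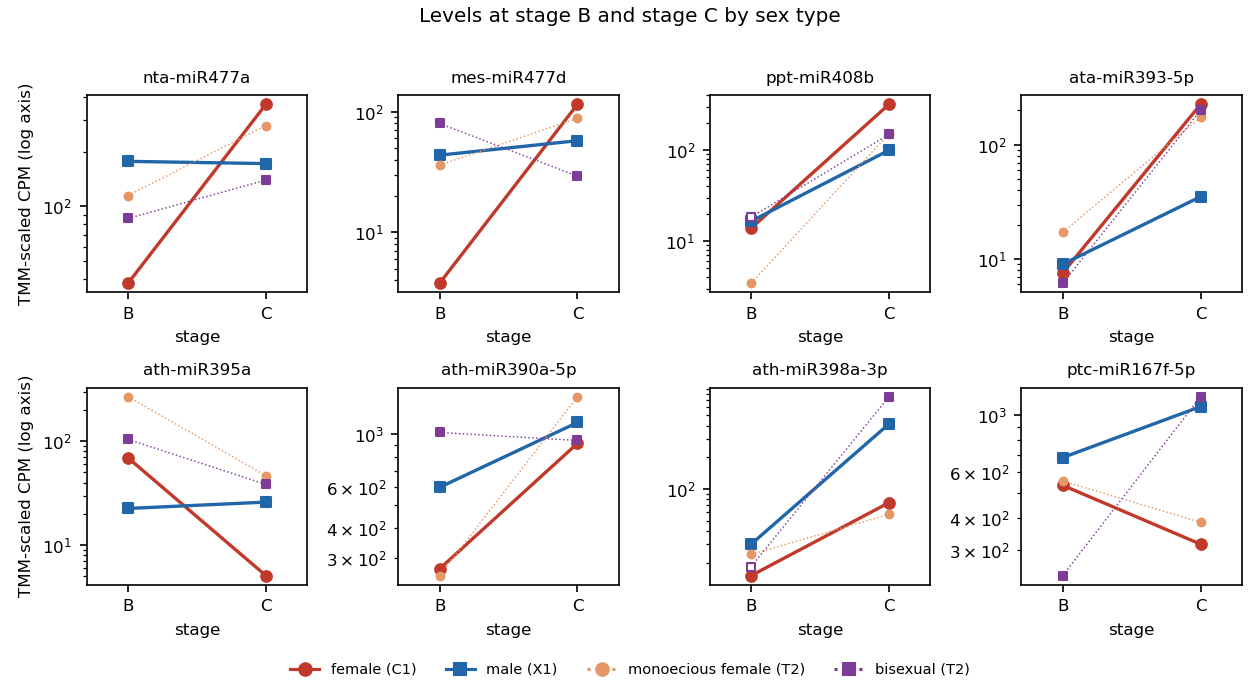
Lines join the TMM-scaled CPM (log axis) at stage B and at stage C for 8 miRNAs in each of the 4 sex types, with open symbols for 0 reads. In nta-miR477a the female line goes from 37.7 to 365 CPM while the male line stays at 177 and 172 CPM, and in ath-miR398a-3p the male line ends at 417 CPM and the female line at 74.5 CPM.

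Bisexual and monoecious female buds of strain T2 share no library with the male and female buds, and both came from 1 strain. Of the 20 groups past 2-fold higher in male buds at stage C, 5 were also past 2-fold higher in bisexual than in monoecious female buds (25%), where 6 of all 147 groups were (4.08%). They were ath-miR398a-3p, with a bisexual to monoecious female ratio of 13.1 (interval 9.33 to 18.9), osa-miR160e-5p with 3.06, ptc-miR167f-5p with 3.06, gma-miR167i with 2.15 and vvi-miR167c with 2.15. Whether the 3 miR167 rows share reads was not tested, so these may be fewer than 5 separate observations. Of the 11 groups lower in male buds at stage C, 3 were also lower in bisexual buds (27.3%), where 12 of all 147 were (8.16%). These were mes-miR477a, mes-miR477d and novel_60, and whether the miR477 rows among them share reads was not tested.

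At stage B the shallow bisexual library enters each T2 ratio. Of the 17 groups higher in male buds there, 3 were past 2-fold in the same direction in T2 (17.6%) and 4 in the opposite one (23.5%). Over all 147 groups, 24 were past 2-fold higher in bisexual than in monoecious female buds at that stage (16.3%) and 54 were lower (36.7%), so these shares lay near or below those of all groups. Of the 11 groups going the same way, T2 was past 2-fold in the male direction for 2 at stage B and 1 at stage C. In the opposite direction it was so for 2 and 1, which is 18.2% and 9.09% each way. At stage C, bisexual buds were past 2-fold higher in 6 of all 147 groups (4.08%) and lower in 12 (8.16%). The bisexual to monoecious female ratio of novel_21 was 10.2 at stage B and 0.617 at stage C, and that of osa-miR171b was 0.673 and 0.807. Among the 4 sex types, the male level was the highest at both stages in novel_106 and novel_22 and the lowest at both in novel_21, novel_37 and novel_105, where over all 147 groups it was the highest in 11 (7.48%) and the lowest in 13 (8.84%). These groups were chosen by their male to female ratio, so nothing is read from that difference. In novel_102 and osa-miR171b it was the female level that was the lowest at both stages, as in 7 of all 147 groups (4.76%).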

How the data were processed

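Small RNA of inflorescence buds was sequenced from 3 micrograms of total RNA per library, per the labels' protocols. The authors deposited 1 table with read counts per miRNA row and TPM values, which equalled CPM of the deposited counts within 4.29e-05, so TPM carried no further information and only counts were used. CASAVA 1.8 and Bowtie were used, per the submitters' processing notes. Not given in the sources used here are mismatch limits, miRBase release and genome build. Each column was matched to a library by its name, and 0 were left unmatched.

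Within a family, rows were joined where all libraries had counts equal within 5% or 2 reads, which put 195 rows into 63 groups. Scaling factors were computed on the unmerged rows that entered the test below. Ratios were TMM-scaled with edgeR 4.0.16 in R 4.3.3, with Clopper-Pearson 95% intervals from scipy 1.17.1. Reads carry no molecular identifiers, so intervals and the floor of 3 reads cover counting error only. A group differed the same way if it was at least 2-fold apart with an interval excluding 1 at both stages. It differed at 1 stage alone if it lay within 1.5-fold at the other and the 95% interval of the ratio of ratios (Wald, 0.5 added to each count) excluded 1. Rows that reached 10 reads in 2 or more libraries were tested with edgeR's quasi-likelihood F-test on 8 libraries, with stage and sex type as additive terms and 3 residual degrees of freedom, at a Benjamini-Hochberg adjusted p under 0.05. SE was taken as the size of the log2 change over the root of the F value. P-values measure the spread between these libraries and not between trees. The procedure was tested on simulated counts.

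Named were the groups that differed the same way or opposite ways, up to 6 per stage and direction that differed at 1 stage, up to 4 families with most reads per list, the 5 rows with the smallest p, groups read in 1 sex alone and the 5 rows with most reads. The members, the lists and these rules were chosen with earlier results of these data known. Alternatives were RLE factors, total counts, other read minimums and folds, all rows unmerged, DESeq2 1.42.0, other family sums, the 4 male and female libraries alone, no bisexual libraries, and each library left out in turn.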

Additional observations from a re-analysis of the deposited data

Results flagged for a closer look

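The male to female ratio moved in opposite directions at the 2 stages in the miR477 family, and the ratio at stage C divided by that at stage B was 0.102 for nta-miR477a (95% Wald interval 0.0639 to 0.162), 0.0826 for mes-miR477a (0.0437 to 0.156) and 0.050 for mes-miR477d (0.0153 to 0.164). With 1 library per sex and stage, this difference was tested against counting error and not against a spread between trees.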

How the results depend on the processing

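Calls rest on 1 library per sex and stage, and depth limits ratios of groups with few reads. Total counts moved every male to female log2 ratio by 0.18 at stage B and 0.05 at stage C against TMM. RLE factors moved it by -0.12 and -0.02. Ratios of stage C to stage B also depend on the scaling, since TMM factors differed between the stages. The count of rows called by edgeR was 0 in the 8-library fit, 7 with the male and female libraries alone, 1 without both bisexual libraries and from 0 to 3 with 1 library left out, where 3 was reached without the bisexual stage C library. For families and predicted miRNAs it was 0, and 1 with DESeq2, 1 with the male and female libraries alone, 4 without both bisexual libraries and from 0 to 6 with 1 library left out, with 6 without the bisexual stage C library and 5 without the bisexual stage B library. Each of these counts above 1 includes novel_106, whose call is no support since the male libraries alone carried it past the filter. Why the bisexual libraries moved these counts was not tested. Groups that went the same way numbered 11, and 7 at a minimum of 50 reads, 21 at 1.5-fold and 2 at 4-fold. Lost at the minimum of 50 reads were novel_105, novel_106, novel_37 and novel_60. That left 6 groups higher and 1 lower in male buds, the latter being novel_21. At stage B alone there were 5, and 12 at 1.5-fold and 0 at 4-fold. At stage C alone there were 10, and 29 at 1.5-fold, 0 at 4-fold and 16 over unmerged rows. Opposite ways went 3, and 5 at a minimum of 10 reads, which added 2 miR395 rows, 5 at 1.5-fold and 0 at 4-fold. Families that went opposite ways numbered 0, and 2 with RLE factors (miR477 and miR3711). Among the named miRNAs and families, 229 recomputed stage ratios stayed within the counting interval of the reported value and 26 left it, while 0 called ratios changed direction. Of the recomputed edgeR changes of named rows, 215 kept their side of the threshold and 11 newly passed it. The labels give no replicate numbers, so male and female libraries are paired by stage alone, and stage is a term in each of these fits.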
